A study of Mus musculus with 8 samples.

Results

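The SALL family holds 4 genes for zinc-finger transcription factors, Sall1 to Sall4, out of 18193 genes that have a probe set with a single symbol on these arrays. Its members were taken as every probe set that the platform annotation gives to one of them, which found 7 probe sets of 45037 that are not array controls. Sall4 was read by a brighter one (1424152_at) and a dimmer one (1424153_s_at), and Sall1 likewise (1437983_at and 1450489_at). Sall2 had 1 (1416638_at), and Sall3 had 1 that was tested (1441186_at) and 1 that was not (1452386_at). In the series, 8 arrays measured RNA from the mouse embryonic stem (ES) cell line CJ7, in 4 groups of 2 arrays. Control cells were infected with a lentivirus without a short hairpin RNA (shRNA). Depleted cells received one whose shRNA targets Sall4a and Sall4b together. Sall4a-only cells carried that shRNA with a Sall4a cDNA immune to it, and Sall4b-only cells with an immune Sall4b cDNA. All groups were exposed to virus for 24 hours with polybrene, kept with LIF and puromycin, and harvested 48 hours after infection. The control virus carried no hairpin, so a lower level of Sall4 and the presence of a hairpin cannot be told apart in any comparison with control. Whether replicate arrays came from separately infected cultures is not given beyond their label as biological replicates, so p-values measure only how far these arrays vary, which may be technical.

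SALL proteins are nuclear factors that bind DNA through pairs of C2H2 zinc fingers and recruit the NuRD histone deacetylase complex through a short motif at the N terminus. Sall4 is the member best known from ES cells, where it partners Pou5f1 and Nanog and is needed for the early embryo. It is made as a long isoform, Sall4a, and a shorter one, Sall4b, which lacks an internal stretch that holds some of the fingers. Sall1 is also present in ES cells and is needed for kidney development. Sall2 is known from neural and eye development, and Sall3 from cranial nerves, palate and neural tissue. In the mouse the genes lie apart (RefSeq, GRCm38.p6): Sall4 at chr2:168748332-168767201, Sall1 at chr8:89027242-89044162 and Sall2 at chr14:52311177-52328670.

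Start-site sequence was sought for Sall1, Sall2 and Sall4, and was found for Sall1 and Sall2 but not for Sall4. Sall1 had 3 windows and Sall2 had 2, each from 250 bases before to 50 bases after a start (RefSeq, GRCm38.p6). Windows of Sall3 were not examined here. SALL4 is known to bind A/T-rich DNA, and the windows differ in that respect, also between the starts of Sall2. The outermost window of Sall1 and both windows of Sall2 are printed. The windows below are written 5′ to 3′ on the gene's strand, which is the minus strand for both genes, and capitals mark ATATT or its reverse complement AATAT.
Sall1, outermost start, chr8:89044113-89044412: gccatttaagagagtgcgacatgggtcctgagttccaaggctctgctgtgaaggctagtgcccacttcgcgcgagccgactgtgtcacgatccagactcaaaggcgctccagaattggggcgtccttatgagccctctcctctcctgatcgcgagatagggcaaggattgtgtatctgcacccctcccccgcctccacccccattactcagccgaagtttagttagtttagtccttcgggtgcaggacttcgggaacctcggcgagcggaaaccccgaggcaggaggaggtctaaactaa
Sall2, outermost start, chr14:52328621-52328920: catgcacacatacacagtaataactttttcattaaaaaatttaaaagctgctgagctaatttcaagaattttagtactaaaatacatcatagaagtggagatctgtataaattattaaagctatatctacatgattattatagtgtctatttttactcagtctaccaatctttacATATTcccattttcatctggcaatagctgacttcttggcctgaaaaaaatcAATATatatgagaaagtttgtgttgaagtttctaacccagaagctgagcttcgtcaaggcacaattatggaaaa
Sall2, inner start, chr14:52316274-52316573: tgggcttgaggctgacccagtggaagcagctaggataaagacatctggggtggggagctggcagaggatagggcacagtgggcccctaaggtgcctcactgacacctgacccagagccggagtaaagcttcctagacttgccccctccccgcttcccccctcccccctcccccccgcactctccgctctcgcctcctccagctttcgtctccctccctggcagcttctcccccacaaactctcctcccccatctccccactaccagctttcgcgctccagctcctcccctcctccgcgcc
The outermost Sall2 window held ATATT on either strand 2 times and was 30.3% G and C, which placed it at percentile 1.03 of all windows by that content. The inner Sall2 window held 0 and was 65.0% G and C. The Sall1 windows held 0 each, at 57.3% for the outermost start and 70.0% and 79.7% for the inner starts. Over all 32851 windows of this length, 25.3% held the motif and the median content of G and C was 52.7%. The octamer ATGCAAAT, the consensus of Pou5f1 and related factors, was found on either strand in 0 of these 5 windows and in 1.74% of all windows. A match is a description of letters and says nothing of binding in these cells.

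The labelled cell type was checked first. Pou5f1, Nanog and Sox2, the core ES cell factors, were called present on all 8 arrays, with intensities between 7722 and 12342 for Pou5f1, 9901 and 12115 for Nanog and 4670 and 7382 for Sox2. Of the SALL probe sets, 6 were called present on all 8 arrays and were tested. The remaining one, the second of Sall3, was called present on 1 array only and was not tested. The Sall4a-only replicates differed most, with an SD over probe sets of 0.60 log2, where the other groups had 0.28 to 0.40. That SD does not say which of the replicates departs. On Sall4a-only replicate 1, 16 fibroblast and feeder markers averaged -1.82 log2 from the control mean, against -0.79 to 0.42 on the other shRNA arrays. On Sall4a-only replicate 2, 20 ES cell network genes averaged -0.13 log2, against 0.14 to 0.41 on the other shRNA arrays. The ratio of 3′ to 5′ control probes, a sign of RNA quality, was alike on all arrays, at 0.47 to 0.57 log2 for Gapdh and 0.41 to 0.54 for Actb.

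**Figure D1:**
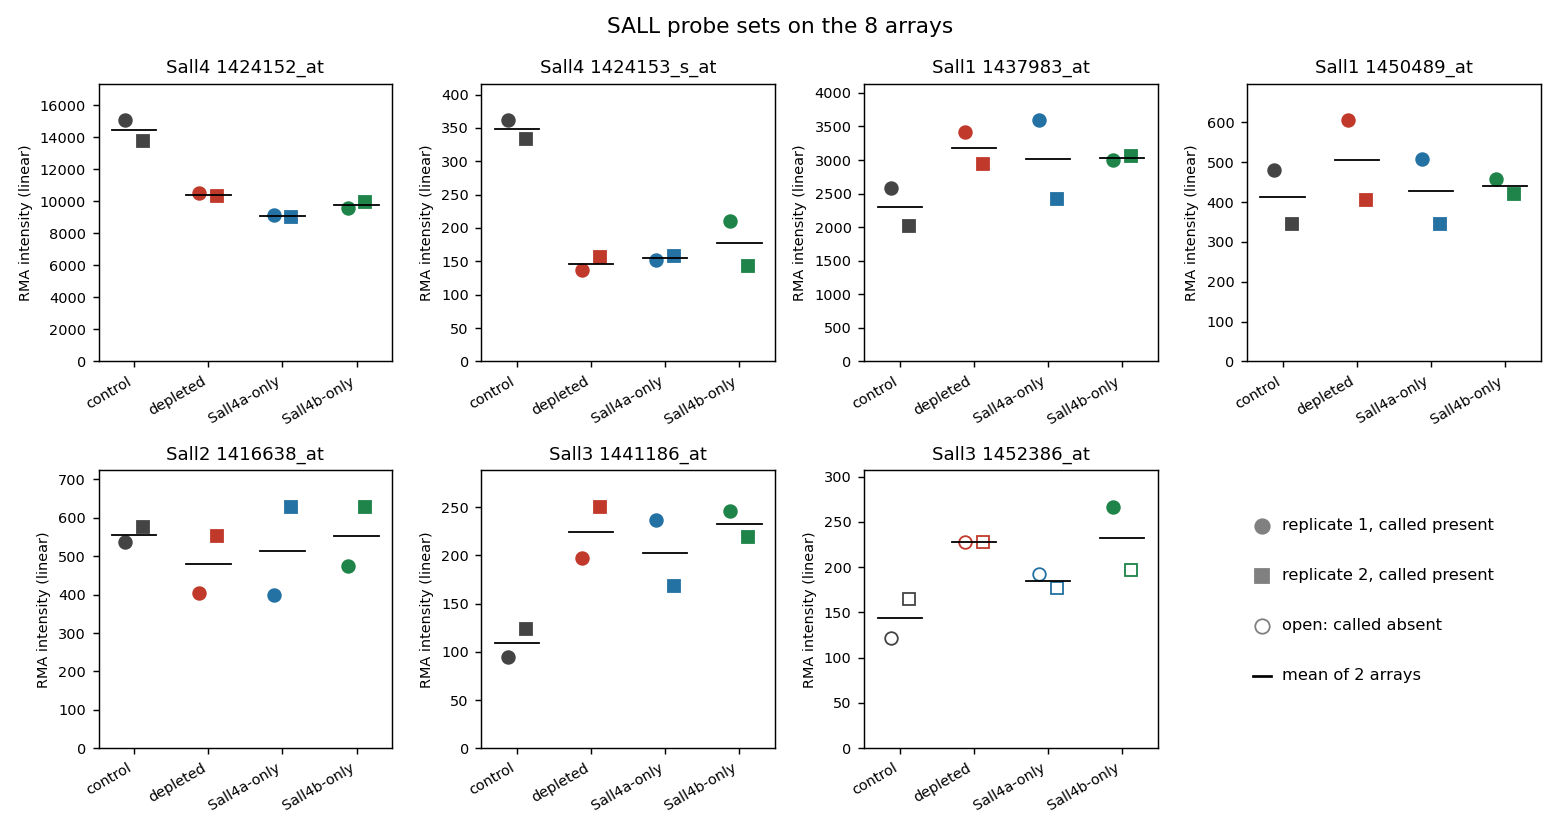
Linear RMA intensity of each SALL probe set on each array, in 4 groups of 2 arrays (circle, replicate 1; square, replicate 2; open symbol, called absent; bar, mean of 2 arrays), with every axis starting at 0. Both Sall4 probe sets lay lower on all 6 shRNA arrays than on either control array, and both Sall3 probe sets higher, though Sall3 1452386_at was called absent on most arrays.

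Sall4, the factor targeted by the shRNA, was lower on every shRNA array than on either control array by both of its probe sets, but it did not disappear. By the brighter probe set the control arrays read 15077 and 13778, the depleted arrays 10489 and 10332, the Sall4a-only arrays 9140 and 9043, and the Sall4b-only arrays 9567 and 9923. No group overlapped another by this probe set, and the order ran from control through depleted and Sall4b-only to Sall4a-only. Relative to control, the geometric mean was 72.2% after depletion, 67.6% in Sall4b-only and 63.1% in Sall4a-only cells. On each array this probe set lay within the brightest part of the chip, at percentile 99.2 to 99.4 of all probe sets on the control arrays and 97.6 to 98.3 on the shRNA arrays.

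By the dimmer Sall4 probe set, the control arrays read 362 and 334 and the depleted arrays 137 and 156. The Sall4a-only arrays read 152 and 158, and the Sall4b-only arrays 211 and 144. The shRNA groups overlapped one another here, and Sall4b-only replicate 1 lay highest among them. Relative to control, the geometric mean was 42.1% with depletion, 44.7% with Sall4a alone and 50.1% with Sall4b alone. It remained called present on all 8 arrays.

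The probe sets of Sall4 thus gave unlike sizes. In depleted cells the log2 difference from control was -0.47 (95% interval -0.74 to -0.20) for the brighter probe set and -1.25 (-1.72 to -0.77) for the dimmer probe set, and these intervals did not meet. Within an array, the log2 gap between the probe sets was 5.38 and 5.37 on the control arrays and 6.26 and 6.05 on the depleted arrays. It was 5.91 and 5.84 on the Sall4a-only arrays, and 5.50 and 6.11 on the Sall4b-only arrays. Every shRNA array therefore had a wider gap than either control array. The letter s in the second name marks a set whose probes can match more than 1 transcript. Which isoform or added cDNA either probe set reads was not tested, since probe positions were not used here.

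Averaged over the 3 shRNA groups, Sall4 differed from control by -0.57 log2 (SE 0.092) by the brighter probe set and by -1.14 (SE 0.16) by the dimmer probe set, and limma gave adjusted p of 0.171 and 0.147 over the 31554 probe sets tested. The single probe set that passed in that comparison was one for the metalloproteinase gene Mmp12. By p the Sall4 probe sets ranked 120 and 63. An exact two-sided permutation test over the 28 ways to pick 2 of 8 arrays gave p = 0.0357 for each, the smallest it allows. It takes the 8 arrays as exchangeable, though they form 4 groups of 2 and the 6 shRNA arrays span 3 groups. All 6 shRNA arrays lay below both control arrays for 7.26% of all tested probe sets. Without both Sall4a-only arrays the differences were -0.52 and -1.12. Fewer cells that hold Sall4 RNA and less of it per cell cannot be told apart in bulk RNA.

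The add-back groups were set against depleted cells to see whether Sall4 signal returned with the added cDNA. By the brighter probe set both add-back groups lay below both depleted arrays, by -0.20 log2 in Sall4a-only cells (SE 0.11, 95% interval -0.47 to 0.077) and by -0.096 in Sall4b-only cells (-0.37 to 0.18). Of all tested probe sets, 15.1% and 24.7% were lower in that way. By the dimmer probe set the differences from depleted cells were 0.086 in Sall4a-only cells (-0.39 to 0.56) and 0.25 in Sall4b-only cells (-0.23 to 0.73). None passed (limma adjusted p from 0.723 to 0.979). In the comparisons with depleted cells, 0 of 6 SALL probe sets passed and 0 had an unadjusted p under 0.05, against 7.66% of all tested probe sets for Sall4a-only and 9.23% for Sall4b-only cells at that unadjusted threshold. Sall4b-only and Sall4a-only cells differed by 0.10 log2 by the brighter probe set (-0.17 to 0.37) and by 0.16 by the dimmer probe set (-0.31 to 0.64). Sall4b-only cells lay above Sall4a-only cells without overlap by the brighter probe set, as 16.8% of all tested probe sets did. These intervals leave room for a moderate difference between the isoform groups in either direction.

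Sall3 (chr18:80966989-80987021, RefSeq, GRCm38.p6), the paralog that lay in the opposite direction, was higher on all 6 shRNA arrays than on either control array. By its tested probe set the control arrays read 94.9 and 124, the depleted arrays 197 and 251, the Sall4a-only arrays 237 and 169, and the Sall4b-only arrays 246 and 219. The shRNA groups overlapped one another, and none of them overlapped control. All these values were near or a little above the median of the chip, at percentile 43.1 and 47.4 on the control arrays and 52.4 to 57.7 on the shRNA arrays. The fold over control was 2.05 with depletion, 1.84 with Sall4a alone and 2.14 with Sall4b alone.

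In the fit, Sall3 differed from control by 1.04 log2 in depleted cells (SE 0.23, 95% interval 0.48 to 1.59), by 0.88 in Sall4a-only cells (0.33 to 1.44) and by 1.10 in Sall4b-only cells (0.54 to 1.65). The limma adjusted p were 0.446, 0.346 and 0.138, so none passed. The mean of the shRNA groups lay 1.01 log2 above control (SE 0.19, adjusted p = 0.181), a 2.01-fold difference that ranked 237 of 31554 by p. The exact two-sided permutation test over 28 choices of arrays gave p = 0.0357, again the smallest possible and with the same limit. All 6 shRNA arrays lay above both control arrays for 6.76% of all tested probe sets. These comparisons share the same 2 control arrays, which differed by 0.38 log2 at this probe set. Without control replicate 1 the mean difference was 0.81 and without control replicate 2 it was 1.20.

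The other Sall3 probe set was called absent on both control arrays, at intensities of 122 and 165. It was called absent on the depleted arrays too, at 228 on each, and on the Sall4a-only arrays, at 192 and 177. Sall4b-only replicate 1, at 267, was the only array with a present call, and replicate 2 was called absent at 197. The 6 shRNA arrays all lay above both control arrays, as for 6.76% of all tested probe sets, but 5 of these 6 arrays were called absent. With both control and depleted cells at absent calls, no fold is given for this probe set.

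Sall1, the paralog that ES cells are known to express, was higher on average on the shRNA arrays by its brighter probe set. Every 95% interval of that difference allowed a lower level too. By the brighter probe set the control arrays read 2586 and 2016, the depleted arrays 3421 and 2948, the Sall4a-only arrays 3598 and 2424, and the Sall4b-only arrays 3002 and 3059. Of the 6 shRNA arrays, 5 lay above both control arrays, and Sall4a-only replicate 2 lay between them. The log2 difference from control was 0.48 with depletion (SE 0.22, 95% interval -0.062 to 1.01), 0.37 with Sall4a alone (-0.17 to 0.91) and 0.41 with Sall4b alone (-0.13 to 0.95). The limma adjusted p ran from 0.406 to 0.671. For the mean of the shRNA groups the difference was 0.42 (SE 0.18, adjusted p = 0.384), 1.34-fold, and the exact permutation test gave p = 0.0714. The size turned on single arrays: without control replicate 2 the mean difference was 0.24 and without control replicate 1 it was 0.60. In Sall4a-only cells it was 0.087 with replicate 1 of that group left out and 0.66 with replicate 2 left out.

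The dimmer Sall1 probe set read 480.5 and 344 on the control arrays and 607 and 404 on the depleted arrays. It read 509 and 346 on the Sall4a-only arrays and 458 and 420 on the Sall4b-only arrays. Every shRNA group overlapped control, and 2 of 6 shRNA arrays lay above both control arrays. The mean of the shRNA groups differed from control by 0.15 log2 (95% interval -0.41 to 0.70, limma adjusted p = 0.828). Without control replicate 2 that difference was -0.094, so its direction rested on 1 array. Both Sall1 probe sets were lower on replicate 2 than on replicate 1 in control, depleted and Sall4a-only cells. The summed intensity of 20 ES cell network genes was also lower on replicate 2 in control cells (135145 and 109638) and with Sall4a alone (151860 and 114816), but was close on the depleted arrays (132958 and 130941). Its part in the Sall1 values was not tested.

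Sall2, read by 1 probe set, showed no difference that the arrays could resolve. On the control arrays it read 536 and 575, the depleted arrays 404 and 554, the Sall4a-only arrays 399 and 629, and the Sall4b-only arrays 476 and 627. Of the 6 shRNA arrays, 3 lay below both control arrays, 2 above both and 1 between. The log2 difference from control was -0.23 with depletion (95% interval -0.88 to 0.42), -0.15 with Sall4a alone (-0.80 to 0.50) and -0.024 with Sall4b alone (-0.68 to 0.63), with limma adjusted p from 0.890 to 0.976. In depleted cells the difference was -0.0044 without depleted replicate 1 and -0.46 without replicate 2. The intervals run past a 1.5-fold difference on at least 1 side in each group.

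**Figure D2:**
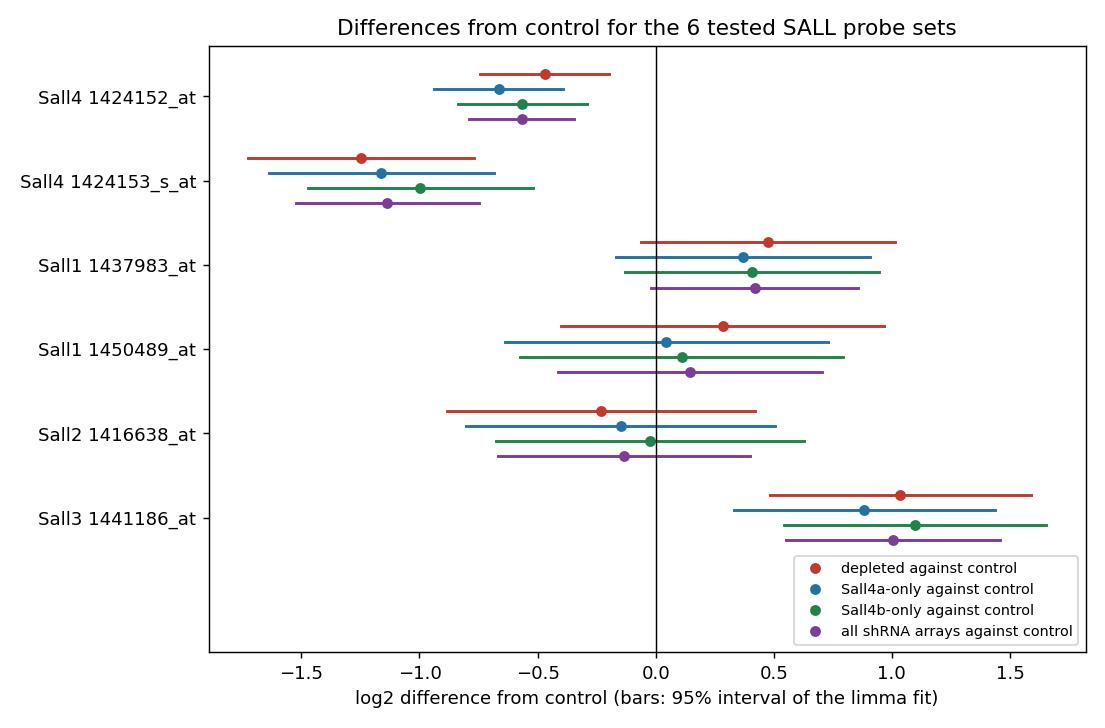
Log2 difference from control (x axis) of the 6 tested SALL probe sets in each shRNA group and for the mean of the shRNA groups; points are limma estimates and bars 95% intervals. The Sall4 intervals lie below 0 and those of Sall3 above 0, while those of Sall1 and Sall2 cross 0; no probe set passed adjustment over 31554 probe sets.

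Against the whole table, the SALL counts were as follows. In depleted against control cells 0 of 6 tested SALL probe sets passed at an adjusted p of 0.05 by limma, and 0% of all tested probe sets did. At an unadjusted p under 0.05 the count was 3 of 6 (Sall3 higher, both Sall4 probe sets lower), where 7.88% of all tested probe sets were called (3.64% higher, 4.24% lower). Groups did not overlap for Sall1 (brighter probe set) and Sall3, both higher, where 20.3% of all tested probe sets were higher without overlap. Both Sall4 probe sets were lower without overlap, where 20.8% of all were.

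The same 3 probe sets had an unadjusted p under 0.05 in Sall4a-only against control cells (10.3% of all tested probe sets called, 4.65% higher and 5.65% lower). They did so in Sall4b-only against control cells (16.9%, 7.73% higher and 9.17% lower) and for all shRNA arrays against control (13.6%, 6.12% higher and 7.5% lower). In Sall4a-only cells Sall3 was higher without overlap (16.1% of all were) and both Sall4 probe sets lower (16.9% of all). In Sall4b-only cells Sall1 by its brighter probe set and Sall3 were higher (26.8% of all) and both Sall4 probe sets lower (26.4% of all). After adjustment 0.00317% of all probe sets passed in each of these comparisons, which is the Mmp12 probe set alone. That count depended on the arrays in the fit. Without both Sall4a-only arrays it was 293 in Sall4b-only against control cells and 14 for the remaining shRNA arrays against control. Those Sall4a-only arrays enter the first of these comparisons only through the variance estimate shared by all groups. With only the groups compared in the fit, 0 passed in Sall4a-only against control cells and 20 in Sall4b-only against control cells. Leaving out 1 array leaves a single array in its group, so counts from those fits are not given. All 6 shRNA arrays lay above both control arrays for 1 SALL probe set of 6, Sall3, and for 6.76% of all tested probe sets. They lay below both for 2 of 6, those of Sall4, and for 7.26% of all. The median log2 difference of the 6 SALL probe sets was 0.0057, and that of all tested probe sets -0.00035, since the family members differed in both directions. Between Sall4b-only and Sall4a-only cells 0 of 6 passed and 0 had an unadjusted p under 0.05, where 5.61% of all did.

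**Figure D3:**
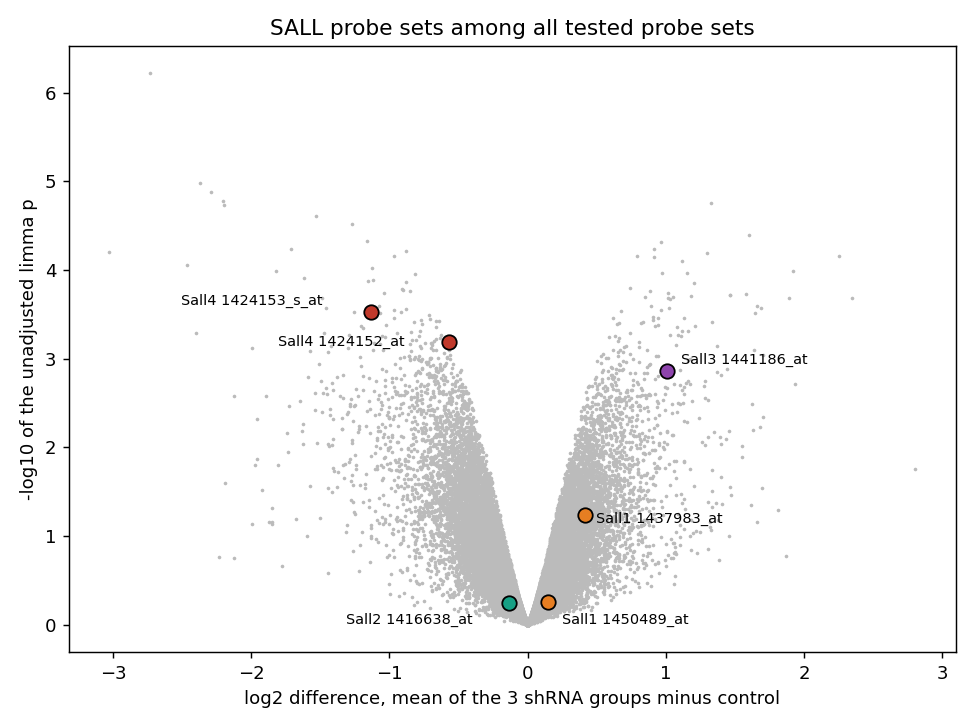
Each of the 31554 tested probe sets by its log2 difference between the mean of the 3 shRNA groups and control (x axis) and the -log10 of its unadjusted limma p (y axis), with SALL probe sets as large points. Sall3 lies at 1.01, Sall4 (dimmer probe set) at -1.14 and Sall4 (brighter probe set) at -0.57, all with other probe sets beyond them, while Sall1 lies at 0.42 (brighter) and 0.15 (dimmer) and Sall2 at -0.13, below those points.

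Sall1 and Sall2 tended to run in opposite directions between the arrays of a group. Sall2 was higher on the array numbered 2 in all 4 groups, by 0.10 log2 in control cells, 0.45 with depletion, 0.66 with Sall4a alone and 0.40 with Sall4b alone. Sall1 (dimmer probe set) was lower on the array numbered 2 in all 4 groups, by -0.48, -0.58, -0.56 and -0.12 log2 in the same order. Over the 8 arrays Sall2 correlated at -0.84 with Sall1 (dimmer probe set) and at -0.69 with Sall1 (brighter probe set). These correlations describe 8 arrays in shared groups, and no test was made of them. They are among those computed between all pairs of SALL probe sets, and same-numbered arrays share only a number.

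**Figure D4:**
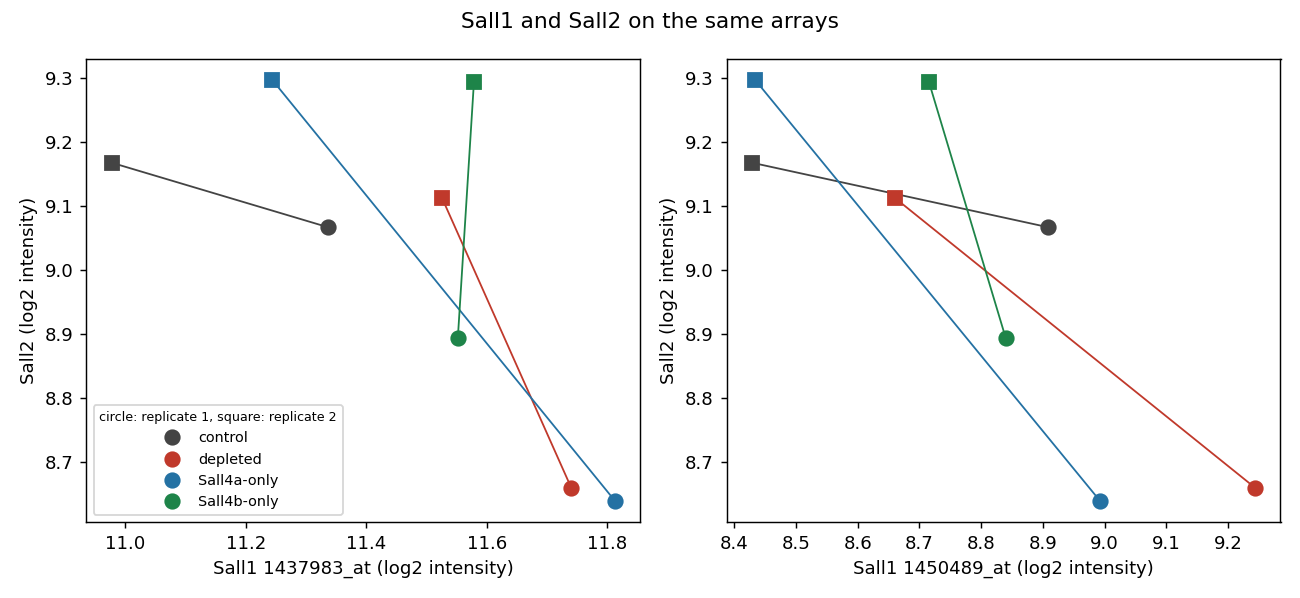
Log2 intensity of Sall2 (y axis) against Sall1 (brighter probe set) (left) and Sall1 (dimmer probe set) (right), one point per array, with a line joining the replicates of a group. On the right each line falls from upper left to lower right, with Sall2 higher and Sall1 lower on replicate 2 (square) than on replicate 1 (circle); on the left the Sall4b-only line is near vertical.

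Sall4 and Sall3 lay in opposite directions between control and shRNA arrays, a contrast in which both use the same control arrays. Over the 6 shRNA arrays alone, Sall3 correlated at 0.26 with Sall4 (brighter probe set) and at 0.37 with the dimmer probe set. By geometric mean Sall3 stood at 205% of control with depletion, 184% with Sall4a alone and 214% with Sall4b alone. The Sall4 probe sets ordered these groups differently, with the lowest level in Sall4a-only cells by the brighter (63.1%) and in depleted cells by the dimmer (42.1%). The shRNA groups did not differ by Sall3 beyond their spread: Sall4a-only and depleted cells differed by -0.15 log2 (95% interval -0.71 to 0.40), and Sall4b-only and Sall4a-only cells by 0.21 (-0.34 to 0.77).

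Genes with the pattern nearest to each member were found by Pearson correlation of log2 intensity over the 8 arrays, among 13198 named genes read by 1 probe set each. Nearest to Sall4 (brighter probe set) were Mmp12, macrophage elastase (r = 0.97), Slc35c2 (0.96), Asb17 (0.95), Snhg16, a small nucleolar RNA host gene (0.95), and Ankrd52 (0.95). Mmp12 was called present on 4 of 8 arrays and Asb17 on 5, so no size is given for either. Slc35c2 differed by -0.30 log2 between shRNA and control arrays. Most opposite to Sall4 were Gmfb (r = -0.98), Dmac2l, Oxr1, Trip4 and Ublcp1 (-0.97 to -0.96), which lay 0.29 to 0.49 log2 higher on the shRNA arrays. All 5 had every shRNA array above both control arrays, as 6.76% of all tested probe sets did. They were chosen by correlation with a probe set whose shRNA arrays all lay below both control arrays. Their separation and that of Slc35c2, chosen in the same way, are therefore not separate results.

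Nearest to Sall3 was Prex2, a Rac exchange factor (r = 0.97, 1.28 log2 higher on the shRNA arrays), followed by Zfp704 (0.96), Tmem47 (0.96), Rsph4a (0.95) and the ATP-gated channel gene P2rx5 (0.94). Prex2 was chosen by correlation with a probe set that was higher on every shRNA array. Its higher level there is therefore not a separate result. Nearest to Sall1 (brighter probe set) were the actin regulators Mtss1 (r = 0.98) and Cobl (0.98), then the RNA methyltransferase gene Trdmt1 (0.97), Sncg, which makes gamma-synuclein (0.96), and Fancl of the Fanconi anaemia pathway (0.96). Nearest to Sall2 were Shisa4 (r = 0.95), the phospholipase gene Pld1 (0.95), Smad3, which carries TGF-beta signals (0.94), Rilp (0.93) and Herc6 (0.93). Herc6 was called present on only 4 of 8 arrays. With 8 arrays many genes reach such values: 31 genes correlated above 0.9 with Sall4, 51 with Sall1, 46 with Sall3 and 9 with Sall2.

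NuRD subunits, the complex that SALL proteins recruit, were all 13 measured, and 0 passed in any comparison by limma. In depleted against control cells 7 lay higher and 6 lower, with a median of 0.015 log2 against -0.0067 for all tested probe sets and 0 at an unadjusted p under 0.05. The smallest p were those of the deacetylase gene Hdac2 (0.24, SE 0.11), the remodeller gene Chd3 (0.66, SE 0.32) and Mbd3 (-0.32, SE 0.21). Of the ES cell network 13 of 20 lay higher in depleted cells and 0 passed. Its median was 0.12 log2, with 1 of 20 at an unadjusted p under 0.05, where 7.88% of all tested probe sets were. That gene was the RNA-binding factor gene Lin28a (1.00, SE 0.38). Klf2 differed by 0.28 (SE 0.16) and Nr0b1 by 0.575 (SE 0.33). Pou5f1, the main partner of Sall4, differed by 0.13 (SE 0.20), Nanog by -0.027 (SE 0.14) and Sox2 by 0.15 (SE 0.22).

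Of 8 genes reported elsewhere as targets of SALL4, 7 were measured and 0 passed, with a median of 0.072 log2 in depleted against control cells. The primitive endoderm factor gene Gata6 differed by -0.98 (SE 0.47) and the trophoblast factor gene Cdx2 by 0.33 (SE 0.36). Among markers of tissues that are known to use SALL paralogs, 7 of 12 neural genes were measured and 0 passed, with 3 higher and 4 lower in depleted cells and a median of -0.051. The neural progenitor factor gene Sox1 differed by 1.57 log2 (SE 0.52), Map2, a neuronal microtubule gene, by 0.59 (SE 0.18) and Pax3 by -0.67 (SE 0.38). An unadjusted p under 0.05 was found for 2 of the 7, Sox1 and Map2, and for 7.88% of all tested probe sets. Of 10 kidney and limb mesenchyme markers 5 were measured, with a median of -0.18 and 0 past the test, and Osr1, Wt1 and Tbx4 differed by -0.20, -0.33 and -0.18.

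Markers of other cell types were read on the same arrays. Fibroblast and feeder markers, 16 of 18 measured, lay higher in depleted cells for 14 of 16 (median 0.28, 0 passed). Col5a2 differed by 1.06 (SE 0.41), Pdgfrb by 0.51 (SE 0.29) and Pdgfra by -0.54 (SE 0.26). Their summed intensity ran from 92388 to 99964 in control cells, 116676 to 121996 with depletion, 60542 to 110241 with Sall4a alone and 84817 to 95955 with Sall4b alone. Sall3 read 237 on the array with the lowest of these sums, Sall4a-only replicate 1, and 197 on the one with the highest, depleted replicate 1. On the control arrays, whose sums lay between these, Sall3 read 94.9 and 124. The relation of Sall3 to these sums was not tested. Trophoblast markers, 11 of 12 measured, were higher for 5 and lower for 6 in depleted cells, with a median of -0.21 and 0 passed. Hand1 differed by -1.37 (SE 0.41), Krt7 by -1.34 (SE 0.43) and Plac1 by -0.70 (SE 0.33). Primitive endoderm markers, all 13 measured, were higher for 4 and lower for 9, with a median of -0.16 and 0 passed, with Gata4 at -0.83 (SE 0.39) and Foxa2 at -0.60 (SE 0.42). In the add-back groups 0 of these markers passed either, but several lists lay further from control. In Sall4a-only cells all 13 primitive endoderm markers were lower (median -0.99), 7 of them at an unadjusted p under 0.05, where 10.3% of all tested probe sets were. In Sall4b-only cells 10 of 11 trophoblast markers were lower (median -0.54), and 19 of 20 ES cell network genes were higher (median 0.36). In either direction, 7 of the 11 and 4 of the 20 had an unadjusted p under 0.05, where 16.9% of all tested probe sets did. Fibroblast and feeder markers were lower for 13 of 16 in Sall4a-only cells (median -0.37) and for 12 of 16 in Sall4b-only cells (median -0.32). Their mean log2 difference from control was -1.82 on Sall4a-only replicate 1 and -0.084 on replicate 2. The size in that group thus rested mostly on replicate 1. On the Sall4b-only arrays the mean was -0.79 and -0.47. The part of these markers in the SALL values was not tested.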

How the data were processed

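RNA from 8 samples was hybridised to 1-colour arrays. Intensities were deposited by the authors on a linear scale after RMA, per the submitters' processing notes, with no version given; RMA equalises distributions between arrays and can narrow broad shifts. The 3 deposited tables held identical intensities. Detection calls (present, marginal, absent) came from the deposited table; how they were made is not stated in those notes or labels. Medians per array ran from 141 to 149.8, and 62.1% to 66.5% of probe sets were called present. The number of arrays limits precision.

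The 64 array controls were left out. Probe sets called present on at least 2 arrays (31554) entered 1 limma fit (R 4.3.3, limma 3.58.1) of 4 group means to log2 intensity, with no pseudocount, and p-values were adjusted by Benjamini-Hochberg over all of them, with 4 residual degrees of freedom (6.46 after moderation). The fit was tested on simulated data. Symbols came from the platform annotation. Groups came from sample titles. Alternatives covered filter, prior, scaling, pseudocount, samples, pairing and each array left out. Lists (NuRD, ES cell network, SALL4 targets, neural, kidney and limb, fibroblast, trophoblast, primitive endoderm) name the 3 genes of smallest p in depleted cells. Members, lists and rules were chosen with earlier results of these data known.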

Additional observations from a re-analysis of the deposited data

How the results depend on the processing

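In all 7 comparisons 0 of 6 SALL probe sets passed, and this held under the alternatives run with 3 exceptions. With a trended and robust prior 1 passed, Sall4 (brighter probe set), in Sall4b-only against control cells (adjusted p = 0.0368) and for all shRNA arrays against control (adjusted p = 0.0317). Same-numbered arrays share only a number: the correlation of their deviations between groups was 0.52 for control with depleted and -0.076 to 0.15 for the other pairs of groups. The replicate block over all 8 arrays left 0 SALL probe sets past the threshold in every comparison. With the replicate block and control and depleted arrays only, added after seeing the data, 2 passed, Sall4 (dimmer probe set) (adjusted p = 0.0225) and Sall3 (adjusted p = 0.0260), and 625 of all probe sets passed where 0 did without it. That fit has 1 residual degree of freedom and 6.07 after moderation, and the cause was not tested. Of 766 values of single probe sets, 732 kept their direction and side of the threshold, 4 passed only under these alternatives, and 30 changed sign, none of which had passed.

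Sign changes came from leaving out 1 array, except Sall2 in Sall4b-only against control cells under quantile normalization (0.00033). With each array left out, against control, Sall1 (dimmer probe set) ran from -0.0085 to 0.58 in depleted, -0.24 to 0.32 in Sall4a-only, -0.13 to 0.35 in Sall4b-only and -0.094 to 0.39 in all shRNA cells. Sall1 (brighter probe set) ran from 0.30 to 0.66, 0.087 to 0.66, 0.23 to 0.59 and 0.24 to 0.60 in that order. Sall2 ran from -0.46 to -0.0044 in depleted, -0.48 to 0.18 in Sall4a-only and -0.22 to 0.18 in Sall4b-only cells. In Sall4a-only against depleted cells the ranges were -0.25 to 0.41 for Sall2, -0.0066 to 0.18 for Sall4 (dimmer probe set), -0.39 to 0.18 for Sall1 (brighter probe set), -0.53 to 0.053 for Sall1 (dimmer probe set) and -0.40 to 0.093 for Sall3. In Sall4b-only against depleted cells they were -0.0193 to 0.43 for Sall2, -0.18 to 0.0397 for Sall1 (brighter probe set), -0.47 to 0.12 for Sall1 (dimmer probe set), -0.11 to 0.23 for Sall3 and -0.028 to 0.53 for Sall4 (dimmer probe set). In Sall4b-only against Sall4a-only cells they were -0.20 to 0.45 for Sall2, -0.25 to 0.32 for Sall1 (brighter probe set), -0.22 to 0.34 for Sall1 (dimmer probe set), -0.032 to 0.46 for Sall3 and -0.11 to 0.44 for Sall4 (dimmer probe set). For all shRNA arrays against control Sall4 (brighter probe set) ran from -0.63 to -0.50, Sall4 (dimmer probe set) from -1.23 to -1.04 and Sall3 from 0.81 to 1.20. Counts over all probe sets moved more: in Sall4b-only against control cells 1 passed, and 293 without both Sall4a-only arrays.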
